A study of Homo sapiens with 40 samples.

Results

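This comparison sets invasive cells of FaDu spheroids kept in epidermal growth factor (EGF) against FaDu spheroids kept in EGF and the drug AZD6244, which blocks the kinase MEK. Its members are the 4 invasive and the 4 MEK inhibitor libraries of FaDu, 8 of the 40 libraries of the series, and they were chosen by sample titles and column names and by no measured value. FaDu is an established line from a squamous cell carcinoma of the hypopharynx, and the cells carried the photoconvertible fluorophore Dendra2. The series counts polyadenylated RNA by its 3' ends in FaDu and in Kyse30, an oesophageal squamous carcinoma line, to follow local invasion driven by the EGF receptor. Each line has 5 groups of 4 libraries. Invasive cells had received 9 nM EGF for 72 h, and the MEK inhibitor spheroids 9 nM EGF with 100 nM AZD6244 for 72 h. Of the groups used beside them, non-invasive cells had received 9 nM EGF, the cetuximab group 9 nM EGF with 10 µg/mL of cetuximab, an antibody that blocks EGFR, and the serum-free group no EGF, also for 72 h. The FaDu groups grew as spheroids of the same Dendra2 line embedded in type I collagen, so FaDu results describe 1 cell line.

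The invasive cells were photoconverted in the invading zones and sorted after collagenase digestion, whereas a label on cell selection calls the MEK inhibitor samples unselected. The drug and the sort therefore changed together, and their parts in a difference cannot be told apart from this pair of groups alone. The titles call the non-invasive cells photoconverted as well, and the selection label gives invasive and non-invasive samples the same wording, so the division between those groups rests on the titles. No label states whether replicates were separate cultures, so p-values measure the spread between libraries, which may be technical. That spread was estimated over all groups of a fit, and not from the compared groups alone. Fewer cells of a kind and less RNA per cell also cannot be told apart in such bulk samples.

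EGF binds its receptor tyrosine kinase EGFR and starts a relay in which RAS recruits RAF, RAF phosphorylates MEK and MEK phosphorylates the kinase ERK. Active ERK switches on transcription factors of the ETS and AP-1 families and, with them, genes that damp the relay, such as DUSP phosphatases and Sprouty proteins. In squamous carcinoma cells the same relay is known to feed proliferation, protease secretion and the change from a stratified epithelial to a migratory state.

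The 8 libraries held 3154470 to 4631178 counts in invasive cells and 2814487 to 4441190 in MEK inhibitor spheroids, and 11631 to 12167 and 11952 to 12407 of the 12655 listed genes were detected in them. MEK inhibitor replicate 1 stood apart. It was the shallowest of its group, with 14.6% of its counts in mitochondrial transcripts and 2.87% in the nuclear RNA MALAT1, against 7.87% to 11.1% and 1.15% to 1.65% in the other MEK inhibitor libraries and 10.4% to 12.0% and 0.667% to 1.55% in the invasive ones. Invasive replicate 2 had the fewest detected genes. All 10 squamous epithelial markers on the list passed the expression filter, and their summed level was 6442 to 7925 CPM in invasive libraries and 8155 to 9579 CPM in MEK inhibitor libraries. In invasive cells 3 of the 10 were called higher and 6 lower by the test described below, with a median log2 fold change of -0.68. EPCAM, the 1 not called, was at 155 ± 17.4 CPM (SD, n = 4) in invasive cells and 140.5 ± 8.30 CPM in MEK inhibitor spheroids. CPM are counts per 1000000 counts of a library, with TMM scaling factors. Of the other cell types looked for, only the fibroblast collagen gene COL1A1, the endothelial cadherin CDH5 and the macrophage glycoprotein CD68 were in the table. COL1A1 averaged 5.37 ± 2.97 CPM in invasive cells and 16.1 ± 7.13 CPM with the inhibitor, CD68 5.73 ± 1.85 and 1.47 ± 1.17 CPM, and CDH5 had 0 counts in every invasive library and 2 of the 4 inhibitor libraries. The part of such cells in the results was not tested.

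Of 12131 genes tested in 1 fit over the 20 FaDu libraries, 5050, or 41.6%, differed between invasive cells and MEK inhibitor spheroids by edgeR's quasi-likelihood test at a Benjamini-Hochberg adjusted p under 0.05. In invasive cells 2396 of them, 19.8% of the genes tested, were higher and 2654, or 21.9%, were lower. These percentages are the background for the counts of list members given below. A difference of more than 2-fold was seen for 843 of the higher and 1673 of the lower genes. The 4 libraries of 1 group lay above the 4 of the other for 15.6% of genes in the invasive direction and 16.6% in the inhibitor direction. The median log2 fold change over all genes was -0.05. Without MEK inhibitor replicate 1 and invasive replicate 2, a choice made after seeing the data, 2406 genes were higher and 2426 lower. With the 2 groups fitted alone, and not with all 20 FaDu libraries, 1840 genes were higher and 1850 lower.

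The 10 highest log2 fold changes among non-overlapping genes of at least 10 CPM were those of MMP1, IGFN1, IL1RL1, ESM1, IL24, SERPINB2, NAV3, TRPV3, HMGA2 and PTGS2. MMP1, interstitial collagenase, which cleaves the fibrillar collagen these spheroids were embedded in, had 58.2, 145, 208 and 144 CPM in invasive replicates 1 to 4 and 0, 0, 0.207 and 0 CPM in the MEK inhibitor replicates. A single MMP1 read was counted over the 4 inhibitor libraries, against 1956 in the invasive ones, so the ratio of 2239 (95% interval 401 to 88479) is imprecise (adjusted p = 7.6e-08, edgeR). IL1RL1, the interleukin-33 receptor, had 101, 170.3, 156 and 114 CPM in invasive cells and 0, 0.461, 0 and 0 CPM with the inhibitor. The inhibitor group held 0 counts of IGFN1, ESM1 and IL24. IGFN1, which encodes an immunoglobulin-like and fibronectin domain protein, was at least 189.6-fold higher in invasive cells, the endothelial proteoglycan gene ESM1 at least 126-fold and the cytokine gene IL24 at least 83.6-fold, taking 3 counts over the 4 inhibitor libraries as the limit of detection.

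Genes with a few inhibitor counts in every library gave firmer folds. NAV3, which encodes a microtubule plus-end protein, had 128, 147, 127 and 100.5 CPM in invasive cells and 1.41, 1.15, 0.413 and 0.851 CPM in inhibitor-treated spheroids, a log2 fold change of 7.07 ± 0.40 (SE). HMGA2, a chromatin architectural protein of embryonic and tumour cells, had 60.1, 119, 111 and 95.0 CPM in invasive cells and 1.41, 1.38, 0.413 and 1.06 CPM with the inhibitor (log2 6.51 ± 0.35). PTGS2, the inducible cyclooxygenase, had 100.3, 401, 620.3 and 489.9 CPM in invasive cells and 5.99, 5.53, 3.51 and 4.04 CPM with the inhibitor (log2 6.42 ± 0.70). The lowest invasive library lay many times above the highest inhibitor library for each of the 3. Groups that do not overlap and a large fold change were conditions of their choice. The ion channel gene TRPV3 averaged 55.6 ± 29.4 CPM in invasive cells and 0.519 ± 1.04 CPM with the inhibitor, where replicate 2 alone held counts (log2 6.60 ± 0.73).

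The 10 lowest were those of IGFL1, IFI44L, CP, CFB, C1R, CLEC7A, EDN2, KRT4, MIR210HG and GBP2. IGFL1, a secreted ligand of the insulin-like growth factor family by sequence, had 0 counts in all invasive libraries and 62.0, 131, 119.9 and 93.0 CPM in MEK inhibitor spheroids, at least 513-fold lower in invasive cells. The interferon-induced gene IFI44L was also at 0 in invasive cells, with 59.6, 101, 98.2 and 42.3 CPM with the inhibitor, at least 373-fold lower. Complement factor B from CFB and complement C1r from C1R were at least 147-fold and 65.8-fold lower, and the lectin receptor CLEC7A and endothelin 2 from EDN2 at least 60.9-fold and 54.5-fold. Invasive cells held 0 counts of each of these 4. CP, the copper-carrying ferroxidase ceruloplasmin, had 0.239, 0, 0 and 0 CPM in invasive cells and 104, 143, 148 and 176 CPM with the inhibitor, a ratio of 2144 (95% interval 384 to 84712) that rests on 1 invasive read. GBP2, an interferon-induced GTPase, had 0.239, 0.673, 0.611 and 0 CPM in invasive cells and 115, 69.0, 71.7 and 38.5 CPM with the inhibitor (log2 -7.61 ± 0.48). MIR210HG, the host transcript of a hypoxia-induced microRNA, averaged 0.0598 ± 0.120 CPM in invasive cells and 24.2 ± 14.8 CPM with the inhibitor.

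**Figure D1:**
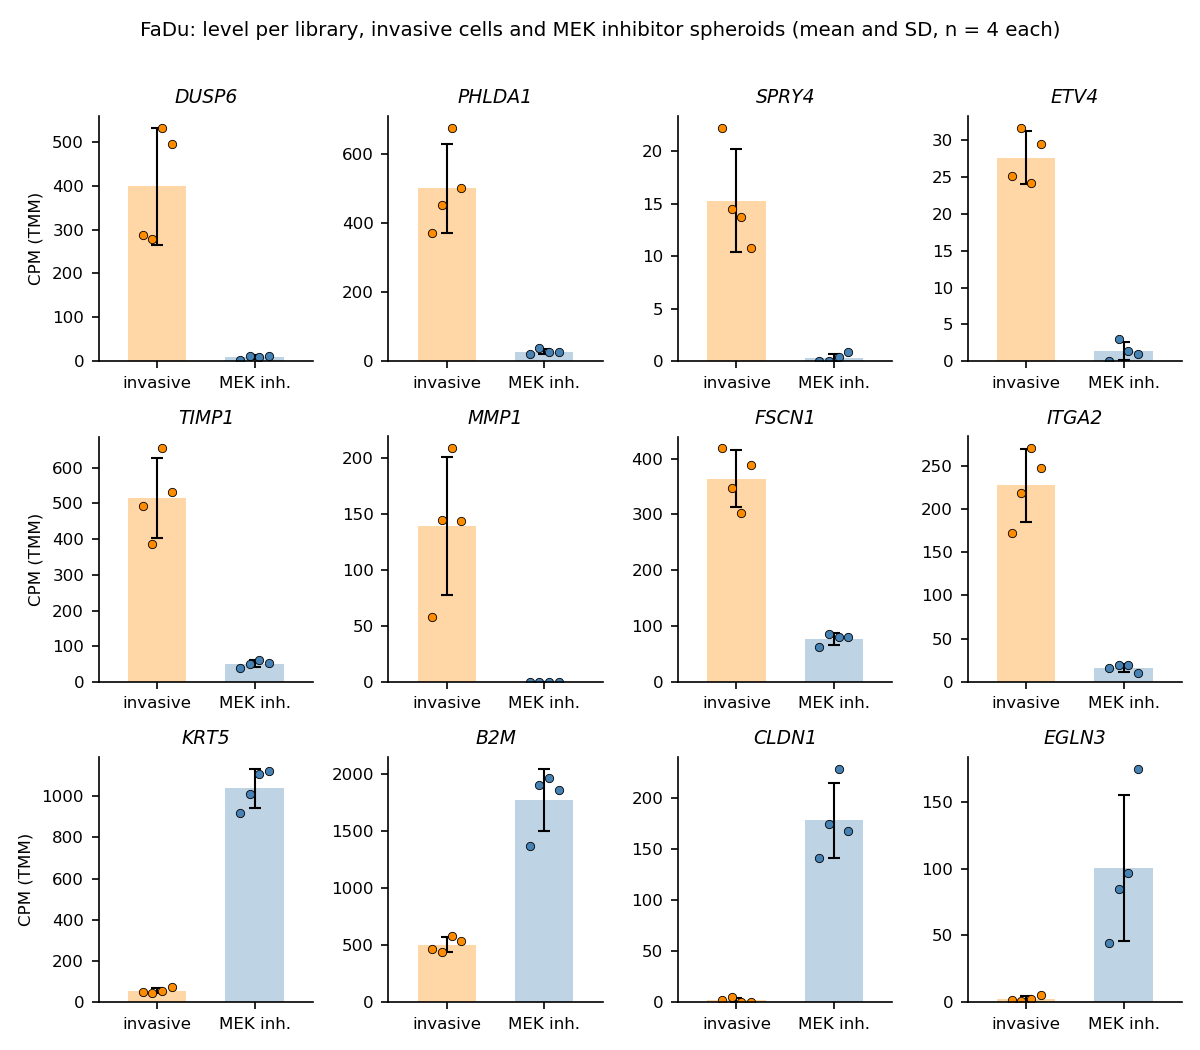
CPM of 12 genes in each of the 4 invasive (left, orange) and 4 MEK inhibitor libraries (right, blue) of FaDu, each panel on its own linear axis from 0; bars are means and error bars SDs. DUSP6 reaches 532 CPM in invasive cells and 13.0 CPM with the inhibitor, while KRT5 reaches 74.4 CPM in invasive cells and 1120.1 CPM with the inhibitor. The groups do not overlap in any panel.

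Feedback and output genes of ERK were mostly higher in invasive cells. Of 22 tested, 18 rose in invasive cells, 1 fell and 3 did not pass, with a median log2 fold change of 2.42 against -0.05 over all genes. DUSP6, the phosphatase that switches off ERK and is itself induced by it, had 288, 279, 532 and 494 CPM in invasive cells and 4.23, 12.0, 9.51 and 13.0 CPM in MEK inhibitor spheroids (log2 5.32 ± 0.33, adjusted p = 1.7e-10, edgeR). Every invasive library lay far above every inhibitor library. SPRY4, a Sprouty inhibitor of RAS activation, had 22.3, 14.5, 13.8 and 10.8 CPM in invasive cells and 0, 0, 0.413 and 0.851 CPM with the inhibitor (log2 5.32 ± 0.62). PHLDA1, an immediate response gene downstream of ERK, had 372, 451, 675 and 502 CPM in invasive cells and 20.4, 37.4, 26.5 and 27.4 CPM with the inhibitor (log2 4.15 ± 0.23).

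ETS transcription factors of the PEA3 group, whose expression follows ERK activity, rose as well. ETV4 averaged 27.6 ± 3.55 CPM in invasive cells and 1.38 ± 1.24 CPM with the inhibitor (log2 4.20 ± 0.38) and ETV5 26.7 ± 1.76 and 4.58 ± 3.15 CPM (log2 2.47 ± 0.32). Cyclin D1 from CCND1, which links mitogen signals to the cell cycle, rose less, with 657, 537, 563 and 532 CPM in invasive cells and 348, 312, 363 and 377 CPM with the inhibitor (log2 0.71 ± 0.11). UPP1, uridine phosphorylase, rose by 3.67 ± 0.28, SPRY2 by 4.51 ± 0.47 and the sphingosine kinase gene SPHK1 by 4.68 ± 0.48 log2 units. The exception, named after its values were seen, was SPRY1, also a Sprouty gene, which was lower in invasive cells at 0.443 ± 0.681 CPM, against 3.17 ± 3.22 CPM with the inhibitor (log2 -2.73 ± 0.96, adjusted p = 0.025, edgeR). Its groups overlapped, and it lost its call without MEK inhibitor replicate 4 or invasive replicate 2, 3 or 4, at -2.63 to -1.85, and with limma-voom, at -2.60. It did not pass the expression filter when the 2 groups were fitted alone. LIF, SPRED2 and EPHA4 did not pass the test.

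The ligands of EGFR were higher in invasive cells and most of its receptors lower. Of the 5 ligand genes tested 4 rose, and betacellulin from BTC did not pass the test. HBEGF had 234, 487, 529.5 and 548 CPM in invasive cells and 23.6, 25.6, 13.2 and 6.38 CPM in MEK inhibitor spheroids (log2 4.73 ± 0.53). Amphiregulin from AREG had 565, 757, 867 and 1208 CPM in invasive cells and 111, 203, 50.2 and 28.3 CPM with the inhibitor (log2 3.12 ± 0.55). Both groups spread widely for AREG, yet the lowest invasive library lay above the highest inhibitor library. TGFA had 67.0, 79.1, 70.6 and 65.1 CPM in invasive cells and 11.3, 9.69, 8.68 and 8.51 CPM with the inhibitor (log2 2.89 ± 0.21), and epiregulin from EREG averaged 380.0 ± 129.6 and 98.4 ± 79.7 CPM (log2 1.96 ± 0.54).

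EGFR itself had 570.4, 428, 586 and 550.1 CPM in invasive cells and 1029.5, 949.6, 861 and 1146 CPM with the inhibitor, a log2 fold change of -0.90 ± 0.13. Its dimer partners ERBB2 and ERBB3 changed by -0.49 ± 0.13 and -1.21 ± 0.22, and LRIG1, a membrane protein that promotes degradation of the receptor, by -2.05 ± 0.56. ERRFI1, a cytoplasmic inhibitor of EGFR kinase activity induced by EGF, was higher in invasive cells, at 64.4 ± 22.9 CPM, against 20.5 ± 6.10 CPM (log2 1.63 ± 0.29). In all, 1 of the 5 receptor and inhibitor genes tested rose and 4 fell. Among 10 receptor and adaptor genes known to rise in other cells under MAPK pathway inhibitors, 6 were lower in invasive cells and 2 higher. FGFR3 had 2.87, 9.09, 3.36 and 3.11 CPM in invasive cells and 115, 67.1, 95.7 and 87.8 CPM with the inhibitor (log2 -4.36 ± 0.34), and FGFR2 averaged 3.13 ± 2.34 and 20.8 ± 5.27 CPM (log2 -2.69 ± 0.40). IGF1R changed by -0.55 ± 0.17. Of these 10 genes, those higher in invasive cells were the receptor tyrosine kinase genes MET and AXL. MET was at 190.0 ± 22.4 CPM, against 81.3 ± 5.72 CPM with the inhibitor (log2 1.22 ± 0.13). AXL was at 94.0 ± 9.74 CPM, against 16.5 ± 6.81 CPM (log2 2.51 ± 0.27).

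Of 19 tested components of the relay itself 3 rose and 5 fell, against 19.8% and 21.9% of all genes, with a median of -0.19. MAP2K1 and MAP2K2, which encode the kinases that AZD6244 inhibits, had log2 fold changes of -0.01 ± 0.51 and -0.46 ± 0.16, the first not called and the second called lower. MAPK3, which encodes an ERK kinase, was at -0.42 ± 0.16 and called lower. The widest change in the list was that of KSR1, a scaffold that brings RAF, MEK and ERK together, with 5.98, 5.72, 5.19 and 5.50 CPM in invasive cells and 21.5, 29.1, 30.4 and 30.2 CPM with the inhibitor (log2 -2.31 ± 0.23). The adaptor gene SHC1 rose by 1.25 ± 0.16 and the exchange factor gene SOS2 changed by -1.11 ± 0.17. Without MEK inhibitor replicate 3 the lower members numbered 3, and without invasive replicate 1 the higher ones 5. MAP2K2 lost its call without MEK inhibitor or invasive replicate 3, at -0.37 and -0.35, and MAPK3 without MEK inhibitor replicate 3 or 4 or invasive replicate 2 or 3, at -0.38 to -0.30.

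AP-1 genes split by family member. FOSL1, which encodes the AP-1 subunit FRA1 of migrating epithelial tumour cells, had 176, 167, 204 and 201 CPM in invasive cells and 20.8, 30.0, 6.20 and 4.25 CPM in MEK inhibitor spheroids (log2 3.64 ± 0.48). FOSL2 moved the other way, with 10.3, 7.74, 21.1 and 17.9 CPM in invasive cells and 84.6, 97.8, 65.5 and 98.1 CPM with the inhibitor (log2 -2.59 ± 0.26). The 2 groups overlapped for neither. JUND and EGR2 were also lower, at -1.51 ± 0.30 and -1.64 ± 0.63, whereas FOS and JUN, at 0.38 ± 0.41 and -0.17 ± 0.22, did not pass. The immediate early genes EGR1, IER2 and IER3 rose by 1.33 ± 0.25, 0.80 ± 0.14 and 2.45 ± 0.28. EGR2 lost its call without MEK inhibitor replicate 2 or 4 or invasive replicate 1 or 3, at -1.43 to -1.19. In all, 5 of 17 AP-1 and immediate early genes rose and 3 fell, against 19.8% and 21.9% of all genes.

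Protease systems that act on the matrix differed in both directions. Of the 10 metalloproteinase and inhibitor genes tested 4 rose and 4 fell. Beside MMP1, the stromelysin MMP10 had 6.70, 14.1, 38.2 and 15.5 CPM in invasive cells and 1.76, 1.61, 0.207 and 0.213 CPM in MEK inhibitor spheroids (log2 4.38 ± 0.71). TIMP1, an inhibitor of metalloproteinases, had 492, 385, 655 and 532 CPM in invasive cells and 38.1, 51.4, 61.0 and 53.4 CPM with the inhibitor (log2 3.33 ± 0.18, adjusted p = 1.9e-13, edgeR). Its relatives went the other way, TIMP2 at 6.42 ± 3.03 CPM in invasive cells, against 28.5 ± 8.71 CPM with the inhibitor (log2 -2.15 ± 0.31), and TIMP3 at 1.32 ± 1.78 CPM, against 9.60 ± 3.98 CPM (log2 -2.91 ± 0.48). ADAM17, the sheddase that releases EGFR ligands from the membrane, was lower in invasive cells, at -0.85 ± 0.13. MMP14, the membrane collagenase of invading cells, was near the detection limit and did not pass, at 4.00 ± 2.50 CPM in invasive cells and 2.11 ± 1.45 CPM with the inhibitor. MMP9 and MMP13 were not analysed here.

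Genes of plasminogen activation were mostly higher, 7 of 10 tested rising and 2 falling, with a median of 2.38. PLAUR, the receptor that holds urokinase at the cell surface, had 45.5, 43.4, 83.7 and 78.2 CPM in invasive cells and 5.29, 14.8, 3.72 and 1.49 CPM with the inhibitor (log2 3.31 ± 0.82). Urokinase itself, from PLAU, varied more between replicates than between groups, with 49.6, 31.3, 418 and 121 CPM in invasive cells and 55.3, 186, 146 and 118 CPM with the inhibitor, and did not pass (adjusted p = 0.79, edgeR). SERPINE2, a serine protease inhibitor, rose by 3.12 ± 0.27. SERPINB2, plasminogen activator inhibitor type 2, had 4.79, 14.1, 45.5 and 25.1 CPM in invasive cells and 0, 0.231, 0 and 0 CPM with the inhibitor, a ratio of 362 (95% interval 64.5 to 14332) that rests on 1 inhibitor read. ANXA2, a cell surface docking protein for plasminogen, rose by 1.41 ± 0.10 and SERPINB5 by 2.17 ± 0.19. Tissue plasminogen activator from PLAT fell, to 4.16 ± 2.60 CPM in invasive cells, against 30.5 ± 8.93 CPM with the inhibitor (log2 -2.86 ± 0.32).

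AP-1 is known to act on the promoters of several protease genes, so the windows from 250 bases before to 50 bases after the RefSeq start (GRCh38.p14) were searched on both strands for the AP-1 letters TGANTCA. A match was found in 5 of 8 plasminogen genes with a window, in 2 of 8 metalloproteinase and inhibitor genes, in 3 of 13 laminin and integrin genes and in 4 of 15 ERK output genes. It was found in 4.46% of the 9465 tested genes with a window and in 7.76% of all 27305 windows. A match is a description of the letters and not a binding site. The windows of MMP10 (chr11:102780579-102780878, minus strand), PLAUR (chr19:43670120-43670419, minus strand), SERPINB2 (chr18:63887455-63887754, plus strand) and LAMA3 (chr18:23872770-23873069, plus strand) are shown as examples that hold a match. Other windows of their lists hold none. They are printed 5' to 3' on the gene's strand, with the matching letters in capitals.
MMP10: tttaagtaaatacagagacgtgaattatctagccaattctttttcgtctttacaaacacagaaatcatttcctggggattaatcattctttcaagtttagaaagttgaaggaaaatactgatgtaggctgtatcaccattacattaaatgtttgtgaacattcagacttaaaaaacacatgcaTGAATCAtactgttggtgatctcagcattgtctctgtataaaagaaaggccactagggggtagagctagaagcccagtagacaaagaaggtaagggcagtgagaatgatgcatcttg
PLAUR: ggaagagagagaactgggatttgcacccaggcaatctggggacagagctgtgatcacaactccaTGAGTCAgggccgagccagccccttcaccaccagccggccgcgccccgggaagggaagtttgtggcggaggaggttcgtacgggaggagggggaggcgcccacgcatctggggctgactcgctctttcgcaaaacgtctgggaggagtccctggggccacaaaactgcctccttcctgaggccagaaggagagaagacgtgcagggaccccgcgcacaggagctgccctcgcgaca
SERPINB2: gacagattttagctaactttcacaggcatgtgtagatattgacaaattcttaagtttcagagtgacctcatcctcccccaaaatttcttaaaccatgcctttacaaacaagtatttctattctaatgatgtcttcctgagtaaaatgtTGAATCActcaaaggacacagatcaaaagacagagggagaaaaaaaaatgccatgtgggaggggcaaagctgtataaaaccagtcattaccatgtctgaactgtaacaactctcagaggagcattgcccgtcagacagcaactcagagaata
LAMA3: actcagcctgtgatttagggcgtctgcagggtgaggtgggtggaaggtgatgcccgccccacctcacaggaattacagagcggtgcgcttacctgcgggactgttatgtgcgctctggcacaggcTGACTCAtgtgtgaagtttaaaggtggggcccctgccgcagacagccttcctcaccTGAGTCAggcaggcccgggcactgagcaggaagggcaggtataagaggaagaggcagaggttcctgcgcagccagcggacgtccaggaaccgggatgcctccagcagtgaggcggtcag

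The first base of the match lay at -67 from the start in MMP10, at -186 in PLAUR and at -102 in SERPINB2, and at -125 and -69 in LAMA3. The ETS letters CCGGAAG, searched the same way, were in 0 of the 15 ERK output windows, against 20.5% of the tested genes with a window.

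Laminin-332, the basement membrane anchor of squamous epithelium, and its receptors rose together, 13 of 19 genes on the list being higher and 3 lower, with a median of 1.56. LAMB3, the gene of its beta chain, had 294, 359.9, 503 and 519 CPM in invasive cells and 176, 155, 141 and 98.9 CPM in MEK inhibitor spheroids (log2 1.56 ± 0.18, adjusted p = 7.9e-08, edgeR). LAMA3, the gene of the alpha chain, rose by 2.07 ± 0.31. The collagen-binding integrin gene ITGA2 had 172, 219, 270.4 and 248 CPM in invasive cells and 16.6, 19.4, 19.6 and 9.78 CPM with the inhibitor (log2 3.80 ± 0.23). ITGA6, ITGB4, COL17A1 and PLEC, which build the hemidesmosome, rose by 2.14 ± 0.14, 1.96 ± 0.16, 2.25 ± 0.16 and 2.25 ± 0.17. ITGA5, the alpha chain of the fibronectin receptor, rose by 1.33 ± 0.29. The lower members were ITGAV, ITGB6 and ITGB8, chains of integrins that activate latent TGF-beta, at -1.58 ± 0.19, -0.79 ± 0.32 and -1.37 ± 0.28. The call of ITGB6 was lost without any 1 of MEK inhibitor replicates 1, 2 and 3 and invasive replicates 1, 2 and 4, at -0.81 to -0.62.

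Actin and motility genes were higher in 18 of 27 cases and lower in 2, with a median of 0.76. FSCN1, which bundles actin in filopodia, had 419, 347, 303 and 389 CPM in invasive cells and 61.7, 85.3, 81.0 and 80.0 CPM with the inhibitor (log2 2.24 ± 0.13). ACTB, FLNA, ZYX and MSN, which encode actin, filamin, zyxin and moesin, rose by 0.90 ± 0.14, 0.88 ± 0.16, 0.77 ± 0.15 and 0.96 ± 0.14, and the actin-binding genes LIMA1 and TPM3 by 2.49 ± 0.16 and 1.38 ± 0.12. The 2 lower genes were the myosin light chain MYL9, at -1.58 ± 0.41, and the capping protein CAPG, at -1.58 ± 0.28, and with upper-quartile scaling 4 were lower. Of 14 YAP/TEAD targets 7 rose and 3 fell, against 19.8% and 21.9% of all genes. The targets CCN2 and CCN1 were not among those that rose. CCN2 averaged 41.3 ± 10.9 CPM in invasive cells and 107 ± 30.1 CPM with the inhibitor (log2 -1.38 ± 0.28), and CCN1 149 ± 87.2 and 310.4 ± 87.1 CPM without passing the test. The ectoenzyme gene NT5E rose by 3.24 ± 0.33, and PTPN14, a phosphatase that restrains YAP, changed by -1.33 ± 0.16.

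Of 13 genes of TGF-beta and BMP signalling 4 were higher, 3 were lower and 6 did not pass, against 19.8% and 21.9% of all genes called higher and lower. TGFB1 had 34.0, 36.4, 34.2 and 32.5 CPM in invasive cells and 1.41, 2.08, 1.24 and 1.28 CPM with the inhibitor (log2 4.49 ± 0.36). TGFB2 went the opposite way, with 0, 0.337, 0 and 0 CPM in invasive cells and 3.88, 4.15, 6.20 and 9.78 CPM with the inhibitor. Follistatin from FST, which binds activin, had 420.1, 554, 690.2 and 705 CPM in invasive cells and 6.70, 16.8, 6.41 and 10.0 CPM with the inhibitor (log2 5.87 ± 0.53). INHBA, the activin subunit that follistatin binds, averaged 86.7 ± 39.7 CPM in invasive cells and 1.27 ± 1.30 CPM with the inhibitor (log2 6.25 ± 0.68). The response gene ID1 changed by -1.36 ± 0.20, and SMAD7 did not pass at 0.82 ± 0.78. In the guidance list 8 of 14 genes rose and 3 fell. The ephrin receptors EPHA2 and EPHB2 rose by 1.25 ± 0.45 and 0.70 ± 0.16, as did EFNB1 by 1.45 ± 0.22, while the ephrin EFNA1 changed by -1.90 ± 0.33. The secreted semaphorins split, with SEMA3A higher by 1.45 ± 0.25 and SEMA3F lower, at 0.671 ± 0.541 CPM in invasive cells, against 15.4 ± 4.51 CPM with the inhibitor (log2 -4.44 ± 0.43). EPHA2 lost its call without MEK inhibitor replicate 1, 3 or 4 or invasive replicate 3 or 4, at 0.87 to 1.25.

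Markers of partial epithelial-mesenchymal transition (EMT), a state in which carcinoma cells gain motility and keep epithelial genes, did not move as a block. Of 22 tested 9 rose and 6 fell, with a median of 0.26. INHBA rose, as did the actin crosslinker gene ACTN1, by 0.75 ± 0.12. PLOD2, a lysyl hydroxylase that shapes collagen crosslinks, averaged 19.9 ± 4.15 CPM in invasive cells and 83.7 ± 37.1 CPM with the inhibitor (log2 -2.07 ± 0.30). Podoplanin from PDPN, a marker of invasive squamous fronts, had 3.83, 3.37, 5.19 and 4.78 CPM in invasive cells and 22.9, 20.5, 24.4 and 24.9 CPM with the inhibitor (log2 -2.42 ± 0.28). TGFBI was lower at under 4 CPM in every library (log2 -2.64 ± 0.77), THBS1 did not pass at -0.51 ± 0.30, and VIM and TNC were under the expression filter in FaDu. Of the 10 EMT transcription factors and mesenchymal genes 3 rose and 2 fell, against 19.8% and 21.9% of all genes. ZEB1 had 4.55, 5.72, 7.03 and 7.65 CPM in invasive cells and 0, 0.922, 0.413 and 0.638 CPM with the inhibitor (log2 3.49 ± 0.86), and TWIST2 rose by 1.68 ± 0.26. S100A4, a calcium-binding protein of motile cells, had 2.15, 1.01, 3.06 and 2.39 CPM in invasive cells and 30.3, 39.9, 25.6 and 26.6 CPM with the inhibitor (log2 -3.79 ± 0.32). SNAI2, CDH2 and FN1, at 0.22 ± 0.25, 0.89 ± 0.37 and 0.36 ± 0.75, did not pass, except CDH2 without invasive replicate 3, at 1.12.

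Of 23 epithelial junction genes 7 fell and 4 rose, against 21.9% and 19.8% of all genes. E-cadherin from CDH1 had 62.2, 76.8, 105 and 82.3 CPM in invasive cells and 114, 199, 197 and 249 CPM in MEK inhibitor spheroids (log2 -1.22 ± 0.26, adjusted p = 8.7e-04, edgeR). The claudin of tight junctions CLDN1 had 2.63, 5.05, 0.305 and 0.718 CPM in invasive cells and 142, 175, 229 and 168 CPM with the inhibitor (log2 -6.41 ± 0.50). The desmosomal cadherins DSG3 and DSC3 changed by -1.85 ± 0.39 and -1.43 ± 0.17. P-cadherin from CDH3, EPCAM and CLDN4 did not pass, at -0.03 ± 0.13, 0.14 ± 0.12 and -0.87 ± 0.37, while the desmosomal plaque gene PKP2 rose by 1.74 ± 0.17. The 4 higher members numbered 2 with upper-quartile scaling, without MEK inhibitor replicate 4 and without invasive replicate 1, 2 or 4.

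Growth genes were higher in invasive cells. Of 20 genes of ribosome biogenesis 18 rose and 2, MYC and PPAN, did not pass, with a median of 1.00. NOP56, a core protein of the particles that modify ribosomal RNA, had 701, 772, 587 and 749 CPM in invasive cells and 466, 303, 227 and 181 CPM in MEK inhibitor spheroids (log2 1.26 ± 0.22). Nucleophosmin from NPM1 and NOLC1 rose by 1.07 ± 0.12 and 1.37 ± 0.14, and GNL3 and UTP20 by 0.60 ± 0.19 and 1.06 ± 0.14. MYC, which drives this programme, had 12.0, 14.8, 46.1 and 23.0 CPM in invasive cells and 27.5, 63.2, 17.4 and 22.1 CPM with the inhibitor in overlapping groups.

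Of 23 DNA replication genes 19 rose and 4 did not pass, with a median of 1.08. CDC6, which loads the replicative helicase, had 109, 88.2, 79.1 and 105 CPM in invasive cells and 28.5, 31.1, 26.0 and 24.5 CPM with the inhibitor (log2 1.79 ± 0.19). The helicase subunit genes MCM3 and MCM4 rose by 1.03 ± 0.17 and 1.38 ± 0.18, and RRM2, a subunit of the enzyme that makes deoxynucleotides, by 1.64 ± 0.22. PCNA and MCM5 rose by 0.94 ± 0.23 and 1.23 ± 0.33 with groups that overlapped in 1 or more libraries, and MCM2 did not pass, at 0.69 ± 0.34, except without MEK inhibitor replicate 2, at 1.03. MEK inhibitor replicate 1, the library that stood apart, held the lowest level of PCNA and MCM2 in its group, 40.2 and 13.7 CPM. Of 22 G2/M genes 15 rose and 7 did not pass, with a median of 0.58. KIF23, a motor of cell division, rose by 1.17 ± 0.17. CDK1 averaged 98.6 ± 24.7 CPM in invasive cells and 59.0 ± 17.0 CPM with the inhibitor (log2 0.73 ± 0.19), and CCNB1, PLK1, TOP2A and MKI67 rose by 0.53 ± 0.21, 0.85 ± 0.22, 0.45 ± 0.17 and 0.76 ± 0.20 in overlapping groups. CCNB1 lost its call without MEK inhibitor replicate 1 or 3 or invasive replicate 1, 3 or 4, at 0.32 to 0.54, and TOP2A without MEK inhibitor replicate 3 or 4 or invasive replicate 1 or 4, at 0.26 to 0.46.

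E2F factors are known to drive replication genes, and the E2F letters TTTNNCGC, searched on both strands, were in 14 of 20 replication gene windows, 70%, against 11% of the tested genes with a window and 6.9% of all windows. The windows of CDC6 (chr17:40287629-40287928, plus strand) and MCM3 (chr6:52284693-52284992, minus strand) are shown as examples that hold a match, from the licensing gene and a helicase gene described above.
CDC6: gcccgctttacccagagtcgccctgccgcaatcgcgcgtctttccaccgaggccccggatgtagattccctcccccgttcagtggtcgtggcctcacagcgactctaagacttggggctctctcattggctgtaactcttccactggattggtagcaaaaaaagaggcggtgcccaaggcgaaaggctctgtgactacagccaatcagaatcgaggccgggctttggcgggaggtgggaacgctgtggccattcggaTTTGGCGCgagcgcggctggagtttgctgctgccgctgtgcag
MCM3: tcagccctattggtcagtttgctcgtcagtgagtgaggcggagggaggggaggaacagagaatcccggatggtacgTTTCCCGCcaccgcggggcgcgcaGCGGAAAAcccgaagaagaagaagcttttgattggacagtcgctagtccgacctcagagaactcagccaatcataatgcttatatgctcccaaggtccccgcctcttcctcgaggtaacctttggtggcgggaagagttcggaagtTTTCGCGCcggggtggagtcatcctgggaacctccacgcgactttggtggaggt

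The match began at +8 in CDC6 and at -174, -150 and -4 in MCM3.

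Inhibitors of the cell cycle and p53 targets went mostly the other way, 10 of 20 being lower in invasive cells and 1 higher. The 1 higher gene was CDKN1A, which encodes the kinase inhibitor p21, with 242, 472, 481 and 383 CPM in invasive cells and 46.9, 73.3, 46.9 and 45.7 CPM with the inhibitor (log2 2.89 ± 0.42). CDKN1B, the gene of the related p27, averaged 16.0 ± 4.04 CPM in invasive cells and 36.2 ± 13.9 CPM with the inhibitor (log2 -1.19 ± 0.28). CDKN2B, the gene of p15, had 3.83, 4.38, 10.4 and 6.46 CPM in invasive cells and 36.7, 33.7, 40.9 and 41.5 CPM with the inhibitor (log2 -2.61 ± 0.30). The stress cytokine gene GDF15 changed by -2.69 ± 0.35, the cell death gene BBC3 by -3.20 ± 0.55, and TXNIP, at -1.26 ± 0.67, did not pass, except without invasive replicate 1, at -1.98. SESN1, a p53-induced sestrin, changed by -1.42 ± 0.25.

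Keratins of the stratified mucosa were low in invasive cells and high in MEK inhibitor spheroids. Of 18 keratin and differentiation genes 13 fell and 3 rose, with a median of -1.70. KRT13, which pairs with KRT4 in non-cornified upper layers, had 0, 1.68, 0 and 2.15 CPM in invasive cells and 115, 114, 34.1 and 39.8 CPM with the inhibitor (log2 -6.25 ± 0.69). KRT4 had 0, 0.337, 0 and 0.478 CPM in invasive cells and 108, 128, 44.6 and 39.6 CPM with the inhibitor, a ratio of 368 (95% interval 126 to 1786) that rests on 3 invasive reads. The inhibitor libraries were high throughout, replicates 1 and 2 most of all. KRT5, the basal keratin, had 48.6, 46.8, 57.4 and 74.4 CPM in invasive cells and 917, 1008, 1106 and 1120.1 CPM with the inhibitor (log2 -4.19 ± 0.37). Its usual partner KRT14 moved the opposite way, with 16.3, 11.4, 15.9 and 17.5 CPM in invasive cells and 0, 3.69, 1.24 and 0.213 CPM with the inhibitor (log2 3.47 ± 0.54), as did KRT6A, a keratin of wounded and hyperproliferative epithelium, at 18.1 ± 5.81 and 0.998 ± 0.446 CPM (log2 4.12 ± 0.47). Reads of near-identical keratin genes may be split by counting, so these levels are less certain. TP63, the master transcription factor of squamous epithelium, averaged 18.7 ± 5.32 CPM in invasive cells and 37.3 ± 10.8 CPM with the inhibitor, and was called lower. KRT15 changed by -1.69 ± 0.29, KRT19 by -1.54 ± 0.17 and the receptor NOTCH3 by -2.58 ± 0.22.

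Secretory and antimicrobial genes of mucosa had the lowest median of the 31 lists, -4.99 (-4.75 with the 2 genes at 0 in invasive cells put at their bound), and 10 of 12 tested fell while S100P and AQP3 did not pass, at -2.08 ± 0.91 and -1.23 ± 1.06. S100P was called without MEK inhibitor replicate 3 or 4 or invasive replicate 2, at -2.73 to -2.48, and AQP3 without invasive replicate 3, at -3.29. MUC1, a membrane mucin of the apical surface, had 2.63, 0, 1.22 and 0.239 CPM in invasive cells and 75.8, 81.2, 88.0 and 88.7 CPM with the inhibitor (log2 -6.22 ± 0.35). SLPI, the secretory leukocyte protease inhibitor, had 6.70, 4.38, 2.44 and 4.78 CPM in invasive cells and 122, 131, 155 and 119 CPM with the inhibitor (log2 -4.81 ± 0.30). Complement C3 averaged 0.734 ± 0.690 and 30.3 ± 7.58 CPM in the same order (log2 -5.17 ± 0.44) and S100A9, a subunit of calprotectin, 0.696 ± 0.675 and 17.4 ± 7.77 CPM (log2 -4.61 ± 0.62). The iron-binding lipocalin LCN2 was lower by a ratio of 69.6 (95% interval 23.5 to 339.9), resting on 3 invasive reads.

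Interferon-stimulated genes fell almost without exception, 22 of 23 tested, and RIGI alone did not pass. Their median was -3.09. IFIT1, which blocks translation of viral RNA, had 1.44, 0, 2.75 and 0.478 CPM in invasive cells and 36.7, 58.8, 62.0 and 18.3 CPM with the inhibitor (log2 -5.20 ± 0.53). ISG15, the ubiquitin-like modifier, had 42.6, 38.7, 60.2 and 46.6 CPM in invasive cells and 146, 252, 182 and 158 CPM with the inhibitor (log2 -1.97 ± 0.25). IFI6 and MX1 changed by -2.79 ± 0.53 and -4.13 ± 0.86, and HERC6, OAS1 and BST2 by -2.62 ± 0.34, -5.28 ± 0.71 and -5.43 ± 0.73. For each of these 7 genes the 4 inhibitor libraries lay above the 4 invasive ones, as for 16.6% of all genes.

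Genes of antigen presentation by MHC class I were lower in parallel, with 12 of 13 falling and TAP2 not passing. B2M, the invariant light chain, had 465, 440.3, 578 and 535 CPM in invasive cells and 1373, 1902, 1962 and 1859.9 CPM with the inhibitor (log2 -1.81 ± 0.14). HLA-B had 51.7, 80.8, 102 and 98.3 CPM in invasive cells and 260.1, 407, 452 and 581 CPM with the inhibitor (log2 -2.35 ± 0.25). Because HLA genes are alike and polymorphic, reads may be lost or split among them. HLA-F, the peptide loading gene TAPBP and the immunoproteasome gene PSMB9 changed by -2.98 ± 0.33, -1.42 ± 0.12 and -3.97 ± 0.42. NF-kB cytokines and chemokines did not share a direction, with 6 of 16 higher and 5 lower. The neutrophil attractant CXCL8 averaged 35.1 ± 3.26 CPM in invasive cells and 20.5 ± 6.96 CPM with the inhibitor (log2 0.77 ± 0.25), and CXCL1 5.24 ± 3.52 and 25.5 ± 11.5 CPM (log2 -2.26 ± 0.42). IL1A and IL1B did not pass, at 0.60 ± 0.32 and -0.01 ± 0.37. CCL5, a T cell attractant, was lower by a ratio of 62.9 (95% interval 17.1 to 524), resting on 2 invasive reads, and ICAM1, a leukocyte adhesion molecule, changed by -2.28 ± 0.38.

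Genes of the hypoxia response fell in 12 of 16 cases and did not pass in 4, with a median of -1.39. EGLN3, an oxygen-sensing hydroxylase, had 1.92, 1.35, 2.44 and 5.74 CPM in invasive cells and 44.8, 84.6, 96.9 and 175 CPM in MEK inhibitor spheroids (log2 -5.07 ± 0.47). NDRG1, a hypoxia and stress response gene, had 386, 598, 727 and 587 CPM in invasive cells and 1267, 2019.9, 1109.8 and 2389.7 CPM with the inhibitor (log2 -1.56 ± 0.29). The mitophagy receptors BNIP3 and BNIP3L changed by -1.58 ± 0.28 and -2.46 ± 0.23, and the peptide hormone gene ADM by -1.94 ± 0.28. VEGFA, at 0.28 ± 0.19, did not pass, but was called higher without invasive replicate 1, at 0.49. Glycolysis genes fell in 8 of 18 cases and did not pass in 10. PGK1 and the lactate exporter SLC16A3 changed by -0.88 ± 0.19 and -0.72 ± 0.20, and ALDOC and GPI by -1.75 ± 0.21 and -0.78 ± 0.13. LDHA and ALDOA did not pass, at -0.27 ± 0.21 and 0.28 ± 0.35, except LDHA without MEK inhibitor replicate 1, at -0.45.

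Other metabolic and stress lists had calls in both directions, except the lysosomal list, whose calls in the main fit were all lower. Of all genes 19.8% were higher and 21.9% lower. Cholesterol and fatty acid synthesis had 2 of 26 genes higher and 4 lower. HMGCS1, SQLE and FASN of the synthesis pathways did not pass, at -0.02 ± 0.23, 0.11 ± 0.17 and 0.27 ± 0.15. SREBF2, the transcription factor of the pathway, and the desaturase SCD were lower, at -0.65 ± 0.13 and -0.98 ± 0.21. The higher and lower members numbered 4 and 2 without MEK inhibitor replicate 4, when FASN passed at 0.40, and 1 and 3 without invasive replicate 4. In the integrated stress response 2 of 15 rose and 6 fell, with TRIB3 and the cystine transporter SLC7A11 higher by 0.74 ± 0.22 and 0.44 ± 0.12, and ATF4, DDIT3 and ASNS not passing at 0.44 ± 0.21, -0.12 ± 0.48 and -0.16 ± 0.82, except ATF4 without MEK inhibitor replicate 1, at 0.69. Fitting the 2 groups alone gave 1 higher and 3 lower members. CEBPB and CHAC1, both stress response genes, changed by -1.26 ± 0.26 and -1.82 ± 0.45. Of 13 NRF2 targets 3 rose and 5 fell. HMOX1, haem oxygenase 1, had 99.1, 154, 167 and 217 CPM in invasive cells and 41.6, 40.4, 35.3 and 43.6 CPM with the inhibitor (log2 1.98 ± 0.26). GCLM, of glutathione synthesis, rose by 0.73 ± 0.17, and NQO1 did not pass at 0.31 ± 0.13, except without invasive replicate 2, at 0.42. AKR1C3, an aldo-keto reductase, and GCLC, the partner of GCLM, changed by -4.05 ± 0.67 and -1.01 ± 0.18. Lysosomal genes fell in 7 of 16 cases and did not pass in 9, though DESeq2 and limma-voom each called 1 higher. Cathepsin D from CTSD had 104, 93.9, 93.5 and 97.6 CPM in invasive cells and 340.5, 368, 407 and 409 CPM with the inhibitor (log2 -1.97 ± 0.13), and the lysosomal glucosidase GAA and the saposin precursor PSAP changed by -2.32 ± 0.19 and -0.80 ± 0.10. LAMP1, at -0.39 ± 0.13, lost its call without MEK inhibitor replicate 3 or 4 or invasive replicate 3, at -0.33 to -0.28.

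**Figure D2:**
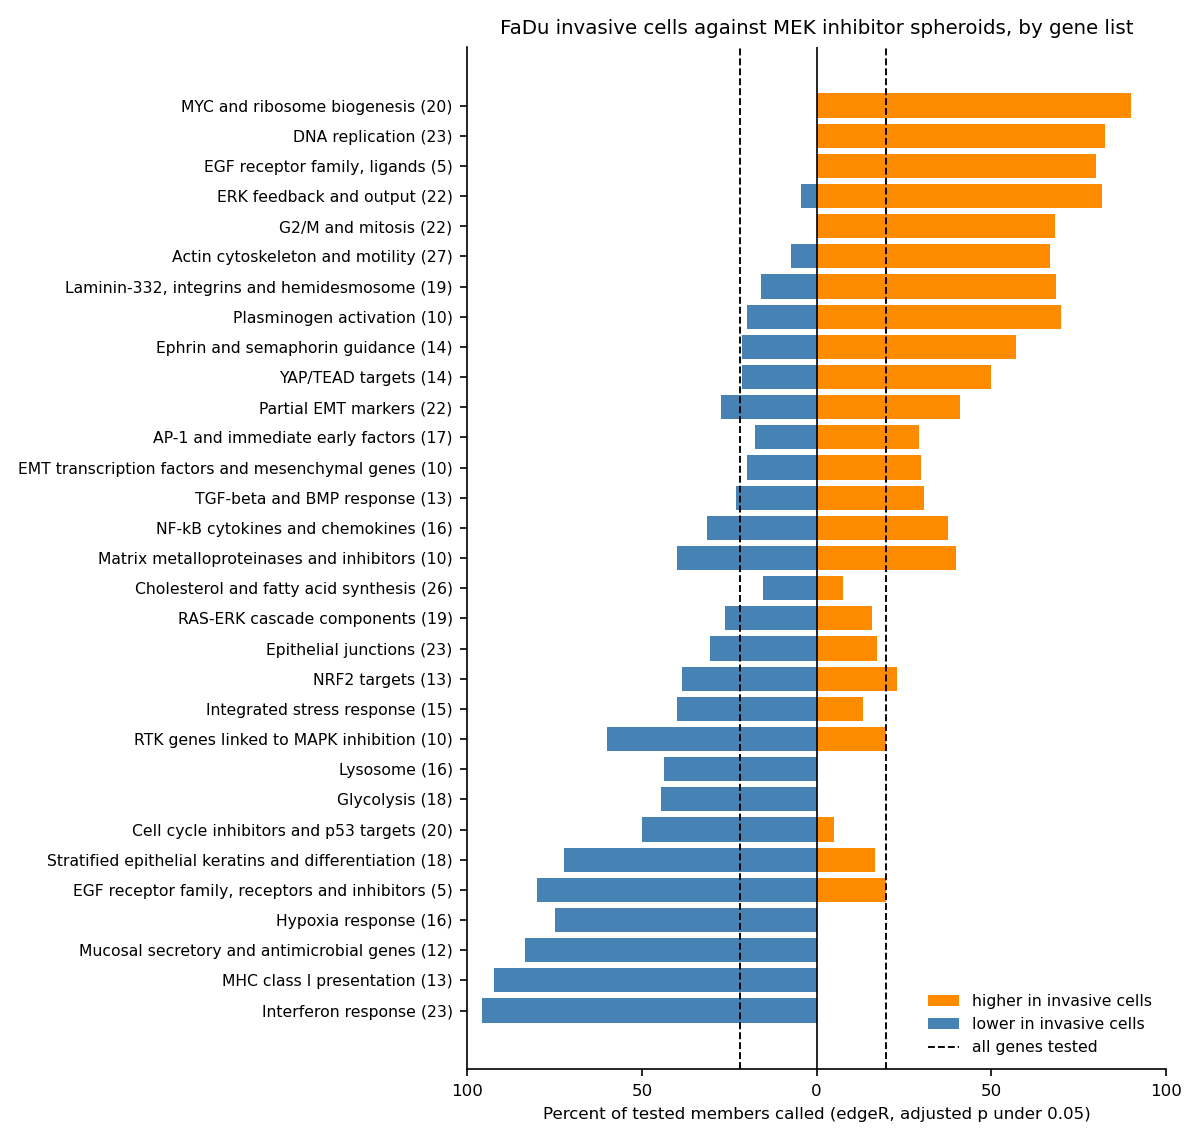
Percent of the tested members of each of 31 gene lists that were called higher (orange, right of 0) or lower (blue, left of 0) in invasive cells than in MEK inhibitor spheroids, by edgeR at an adjusted p under 0.05, with the number tested after each name. Dashed lines mark the 19.8% of all genes called higher and the 21.9% called lower. ERK output, ribosome biogenesis and DNA replication lie far to the right, interferon response, MHC class I and mucosal genes far to the left.

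Non-invasive cells of FaDu spheroids had EGF without the inhibitor and were sorted as well, which gives a second contrast with the inhibitor group. The titles do not say whether invasive and non-invasive libraries came from the same spheroids. In non-invasive cells 3602 genes, 29.7% of those tested, differed from the MEK inhibitor group, 1806 of them, or 14.9%, higher and 1796, or 14.8%, lower. With upper-quartile scaling these numbers were 1434 and 2204, and the median log2 fold change of all genes moved by -0.09. In invasive against inhibitor libraries the same scaling moved that median by -0.11. Between invasive and non-invasive cells 80 genes, 0.659%, were higher and 284, or 2.34%, lower in invasive cells. Leaving out 1 library of those groups in turn gave 28 to 87 higher and 181 to 256 lower genes, with 34, 34, 44 and 28 higher without non-invasive replicates 1 to 4 and 44 and 37 without invasive replicates 2 and 4. The lower genes numbered 184 and 181 without non-invasive replicates 1 and 4. The comparisons share libraries, so their values are given side by side.

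Of the 22 ERK output genes 19 rose in non-invasive cells against the inhibitor, and 0 were called by edgeR between invasive and non-invasive cells, where 1 had an unadjusted p under 0.05 and DESeq2 called 0 and limma-voom 0. DUSP6 had 288, 279, 532 and 494 CPM in invasive and 366, 405, 417 and 519.6 CPM in non-invasive cells, in overlapping groups (log2 -0.10 ± 0.26). Laminin and integrin genes had 13 members higher and 2 lower in non-invasive cells against the inhibitor, and 1, the integrin activator gene FERMT1, was higher in invasive than in non-invasive cells (log2 0.57 ± 0.14), though not without non-invasive replicate 1 (0.45). Fitting these groups alone gave 2 higher members. Replication genes rose in 15 and ribosome biogenesis genes in 13 cases in non-invasive cells against the inhibitor. Without MEK inhibitor replicate 4 these numbers were 9 and 8, and without replicate 3 ribosome biogenesis genes rose in 7 cases. G2/M genes rose in 5 of 22 cases and fell in 1 there, against 14.9% and 14.8% of all genes. Of them 2 and 3 were higher without non-invasive replicates 1 and 2, 8 without MEK inhibitor replicate 2, and 3 with upper-quartile scaling. Between invasive and non-invasive cells 1 of the 22, the mitotic kinase gene AURKA, was called (log2 0.63 ± 0.16), and it lost its call without any 1 of 7 of the 8 libraries, at 0.57 to 0.65. DESeq2 called 3 of the 22 higher in invasive cells, limma-voom 2 and the fit of these groups alone 4.

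Other lists did differ between the sorted groups. Interferon genes fell in 12 of 23 cases in non-invasive cells against the inhibitor, and 11 were lower in invasive than in non-invasive cells, against 2.34% of all genes. Those 11 numbered 6 or 7 without non-invasive replicate 1, 3 or 4 or invasive replicate 1, 2 or 4, 7 when these groups were fitted alone and 5 with limma-voom. GBP2 averaged 0.381 ± 0.318 CPM in invasive cells, 5.18 ± 1.50 CPM in non-invasive cells and 73.6 ± 31.6 CPM with the inhibitor. CLDN1 averaged 2.18 ± 2.17, 14.3 ± 5.39 and 178 ± 36.7 CPM in the same order, with a log2 difference of -2.77 ± 0.55 between invasive and non-invasive cells. Hypoxia genes were lower in 4 of 16 cases in non-invasive cells against the inhibitor, or 2 without non-invasive replicate 4 or MEK inhibitor replicate 3 or 4. Of them 7 were lower in invasive than in non-invasive cells. The shares of all genes were 14.8% lower and 14.9% higher in non-invasive cells against the inhibitor, and 2.34% lower between the sorted groups. Glycolysis genes rose in 6 cases in non-invasive cells against the inhibitor, where invasive cells had 8 lower, and 8 were lower in invasive than in non-invasive cells, or 5 without non-invasive replicate 1 or 2. ENO2 averaged 6.18 ± 1.31 CPM in invasive cells, 32.5 ± 1.83 CPM in non-invasive cells and 14.7 ± 3.94 CPM with the inhibitor. EGLN3 averaged 2.86 ± 1.97, 19.6 ± 6.05 and 100.2 ± 54.4 CPM.

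Among genes called in the same direction in both invasive comparisons, those with the largest difference from non-invasive cells included TONSL, a replication fork repair gene, with 15.2 ± 2.80 CPM in invasive cells, 4.46 ± 1.60 CPM in non-invasive cells and 5.24 ± 2.55 CPM with the inhibitor. HMOX1 averaged 159 ± 48.3, 63.0 ± 21.2 and 40.2 ± 3.52 CPM in the same order, RGS2, a regulator of G protein signalling, 48.7 ± 16.1, 24.2 ± 7.54 and 9.81 ± 2.39 CPM, and NAV3 126 ± 19.3, 66.6 ± 5.95 and 0.957 ± 0.428 CPM. SLC7A11 averaged 300.1 ± 36.0, 161 ± 21.2 and 221 ± 16.7 CPM and GCLM 510.1 ± 21.6, 283 ± 26.9 and 307 ± 65.2 CPM, so for both the non-invasive mean lay below that of the inhibitor group. On the lower side the fibrillar collagen gene COL5A1 averaged 1.09 ± 0.655, 10.0 ± 2.67 and 6.50 ± 2.82 CPM, the sodium channel subunit SCNN1A 2.17 ± 1.63, 12.6 ± 4.04 and 13.2 ± 2.26 CPM and BBC3 7.73 ± 1.81, 40.7 ± 5.92 and 71.2 ± 49.7 CPM. Of the 13 NRF2 targets 8 fell in non-invasive cells against the inhibitor, where 14.8% of all genes did. In invasive cells 5 were higher than in non-invasive cells, or 3 without non-invasive replicate 2, against 0.659% of all genes.

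**Figure D3:**
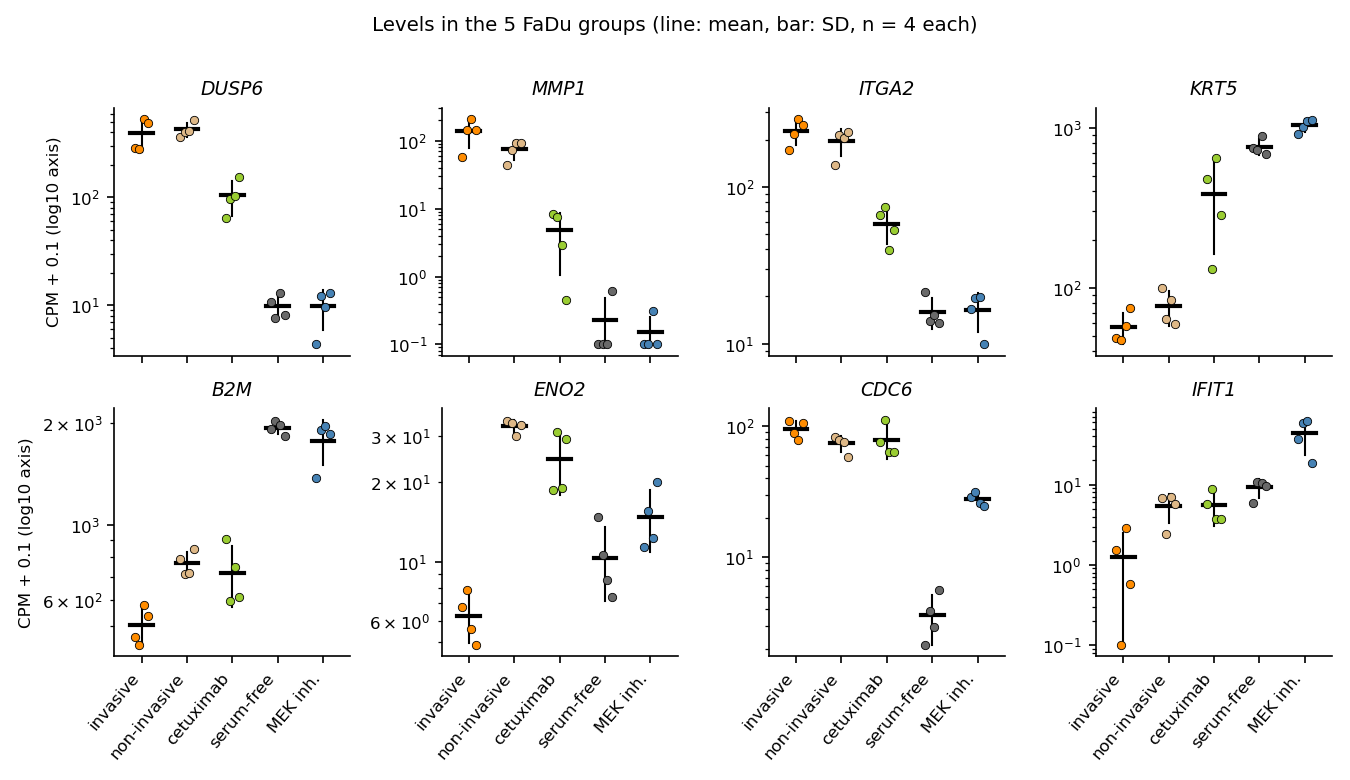
Mean CPM with SD bars and the 4 libraries as points, on a log10 axis of CPM + 0.1, for 8 genes in the 5 FaDu groups from left to right: invasive, non-invasive, EGF with cetuximab, serum-free and EGF with MEK inhibitor. DUSP6, at means of 398 and 427 CPM in the sorted groups, MMP1 and ITGA2 are high in both and low with the inhibitor, KRT5 is highest with the inhibitor at 1038 CPM, and ENO2 is lowest in invasive cells at 6.18 CPM among the sorted and inhibitor groups.

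The levels of a few genes over all 5 FaDu groups place the inhibitor spheroids beside the other treatments, as a description without a test. DUSP6 averaged 398 ± 133 CPM in invasive cells, 427 ± 65.5 CPM in non-invasive cells, 104 ± 36.6 CPM in spheroids given cetuximab, 9.74 ± 2.43 CPM without serum and 9.68 ± 3.91 CPM with the inhibitor. The ranges of the last pair overlapped. ITGA2 averaged 227 ± 42.3, 195 ± 38.8, 58.0 ± 15.1, 15.9 ± 3.65 and 16.3 ± 4.58 CPM in the same order. KRT5 averaged 56.8 ± 12.6, 76.8 ± 19.0, 385 ± 223, 762 ± 86.2 and 1038 ± 94.7 CPM, highest with the inhibitor. IFIT1 averaged 1.17 ± 1.21, 5.38 ± 2.12, 5.41 ± 2.46, 9.15 ± 2.34 and 43.9 ± 20.5 CPM, also highest with the inhibitor. CDC6 averaged 95.3 ± 14.0, 73.8 ± 10.7, 79.0 ± 22.9, 3.54 ± 1.51 and 27.5 ± 2.92 CPM, so the inhibitor group lay between the other EGF-treated groups and the serum-free group. IGFL1 was at 0 in invasive cells and averaged 1.10 ± 0.139, 19.0 ± 13.1, 3.73 ± 1.17 and 101 ± 30.7 CPM, highest with the inhibitor.

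The same contrast in Kyse30 was tested in a fit over all 40 libraries and 12652 genes. In Kyse30 2818 genes, 22.3%, differed, 1189 of them, 9.4%, higher and 1629, or 12.9%, lower in invasive cells than with the inhibitor. The difference between the lines, the Kyse30 effect minus the FaDu effect, was called for 922 genes, 7.29%, higher for 508, or 4.02%, and lower for 414, or 3.27%. The first invasive Kyse30 library held 463124 counts, against at least 2538447 in the other libraries of the line, and without it 1586 genes were called higher and 1696 lower in Kyse30 and 740 higher and 689 lower in the difference.

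For some members no difference between the lines was called. MMP1 had 1.90, 15.7, 48.8 and 42.4 CPM in invasive Kyse30 cells and 0, 0, 0 and 0 CPM with the inhibitor, and its difference between the lines was not called (adjusted p = 0.91, edgeR). With almost no MMP1 reads in the inhibitor groups of both lines, its fold changes are poorly determined and this test could hardly show a difference. ITGA6 had log2 fold changes of 2.14 ± 0.23 in FaDu and 2.26 ± 0.23 in Kyse30, with a difference of 0.12 ± 0.32 (adjusted p = 0.89, edgeR), and HBEGF 4.72 ± 0.43 and 4.58 ± 0.44, with a difference of -0.15 ± 0.57. The ERK output list had 11 members higher and 1 lower in Kyse30, and 5 of the 22 had a difference between the lines, each of them negative. For DUSP6 the log2 fold changes were 5.32 ± 0.41 in FaDu and 2.43 ± 0.37 in Kyse30, a difference of -2.89 ± 0.52 (adjusted p = 2.1e-04, edgeR), and for PHLDA1 4.15 ± 0.28 and 1.73 ± 0.25, a difference of -2.42 ± 0.35. ETV4 rose by 4.20 ± 0.45 in FaDu and had a log2 fold change of 0.25 ± 0.36 in Kyse30, which did not pass, and the difference of -3.95 ± 0.58 was called.

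Between 9 and 10 members of the hypoxia, glycolysis, interferon and replication lists differed between the lines. Of 16 hypoxia genes 12 were lower in FaDu and 6 higher in Kyse30, and 10 had a positive difference. Of 18 glycolysis genes 8 were lower in FaDu and 7 higher in Kyse30, and 9 had a positive difference. NDRG1 had log2 fold changes of -1.56 ± 0.33 in FaDu and 3.35 ± 0.36 in Kyse30, a difference of 4.91 ± 0.49 (adjusted p = 3.6e-09, edgeR). For EGLN3 they were -5.08 ± 0.54 in FaDu and 1.49 ± 0.46 in Kyse30, a difference of 6.57 ± 0.71. Its Kyse30 call was lost without invasive replicate 2 or 4 of that line, at 1.15 and 1.23. Of 23 interferon genes 22 were lower in FaDu, and 9 had a positive difference, or 14 with limma-voom. Of 23 replication genes 19 were higher in FaDu, and 9 had a negative difference. In Kyse30 0 replication genes were called higher and 2 lower, and of the interferon genes 1 was called higher and 0 lower. Without the shallow library 10 hypoxia and 11 glycolysis genes were higher in Kyse30, and the numbers with a difference were 12 for hypoxia, 12 for glycolysis, 10 for interferon and 10 for replication genes. The part of that library's depth in these results was not tested beyond leaving it out.

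Of single genes the widest positive differences belonged to IGFL1, MIR210HG, C1R, ANGPTL4, RHCG and CFB. IGFL1 and CFB were at 0 in invasive FaDu cells and at 0.688 ± 1.04 and 2.66 ± 1.81 CPM with the inhibitor in Kyse30, against 101 ± 30.7 and 31.9 ± 13.9 CPM with the inhibitor in FaDu. ANGPTL4, a secreted regulator of lipoprotein lipase, averaged 45.4 ± 34.7 CPM in invasive Kyse30 cells, from 0 in the shallow library to 78.6 CPM, and 1.26 ± 0.260 CPM with the inhibitor, whereas FaDu had 0.228 ± 0.317 CPM in invasive cells and 2.42 ± 1.12 CPM with the inhibitor. RHCG, an ammonia channel gene, was nearly absent from Kyse30, with 3 counts in invasive cells and 0 with the inhibitor, and in FaDu it averaged 1.95 ± 1.41 CPM in invasive cells and 61.3 ± 32.2 CPM with the inhibitor. The widest negative differences belonged to PCDH9, COL12A1, PLEKHS1, RAPGEF3, SPOCK1 and PTGS2. COL12A1, a fibril-associated collagen gene, had 29.0, 32.7, 29.0 and 30.9 CPM in invasive FaDu cells and 7.75, 8.53, 4.96 and 5.53 CPM with the inhibitor, but 1 count over all invasive Kyse30 libraries, against 35.5, 22.0, 34.2 and 10.5 CPM with the inhibitor. PCDH9, a protocadherin gene, was at 0 in invasive Kyse30 cells and averaged 21.2 ± 10.1 CPM with the inhibitor, while in FaDu it did not pass. PLEKHS1 was under the expression filter in FaDu. SPOCK1, a matrix proteoglycan gene, stood at 135 ± 4.60 CPM in invasive Kyse30 cells and 102 ± 15.5 CPM with the inhibitor, and in FaDu at 7.32 ± 1.91 CPM in invasive cells and 0 with the inhibitor. PTGS2 averaged 130.5 ± 45.9 CPM in invasive Kyse30 cells and 104 ± 73.8 CPM with the inhibitor, where FaDu had 403 ± 221 and 4.77 ± 1.18 CPM. RAPGEF3, an exchange factor activated by cyclic AMP, averaged 12.1 ± 2.49 CPM in invasive FaDu cells and 0.115 ± 0.231 CPM with the inhibitor, and in Kyse30 3.85 ± 2.75 and 13.0 ± 6.91 CPM.

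**Figure D4:**
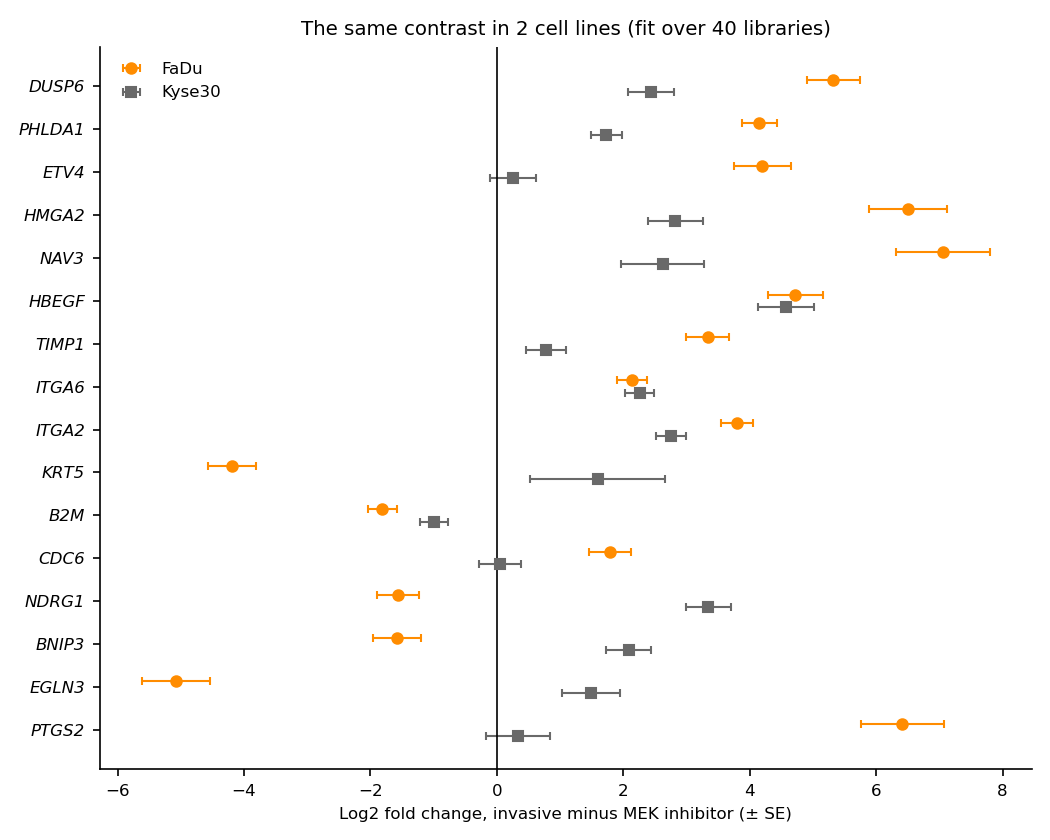
Log2 fold change, invasive minus MEK inhibitor, with SE bars, in FaDu (orange circles) and Kyse30 (grey squares) for 16 named genes, from the fit over 40 libraries. ITGA6 and HBEGF lie close together in both lines, above 2 and above 4, while NDRG1 and EGLN3 lie below 0 in FaDu and above 0 in Kyse30 and DUSP6 and HMGA2 lie further right in FaDu.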

How the data were processed

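QuantSeq 3' end RNA libraries from 40 samples were analysed as the raw read counts per gene that the authors deposited in 1 table of 12655 genes. The submitters' processing notes name STAR, HTSeq and GRCh38 (hg38), without versions. The strand setting of the counting is not given in the sources used here, so overlapping and antisense genes may share reads. Every listed gene had at least 142 counts in all and counts in at least 4 libraries, so genes of low abundance had been left out before deposit, by a rule not given in the sources used here. No column lacked a sample. Over the replicate pairs within each of the 10 groups, the most alike, FaDu serum-free replicates 1 and 3, differed by a chi-square of 2.39 per degree of freedom, above sampling noise, so every library was counted as its own sample.

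Counts were normalized by TMM and tested by edgeR 4.0.16 (quasi-likelihood F test, robust, filterByExpr, R 4.3.3) in 1 fit over the 5 FaDu groups, and for Kyse30 and the difference between lines in 1 fit over all 40 libraries. The Benjamini-Hochberg adjusted p was taken over all genes of a fit, and a gene was called at an adjusted p under 0.05. The SE of a log2 fold change is its size divided by the square root of F. With a group at 0 counts, a bound was computed against 3 counts over the group. With 1 to 3 counts, an exact 95% interval of the ratio is given. Intervals and bounds cover counting error only. The script was tested on simulated data. Alternatives were RLE and upper-quartile factors, no filter, a filter of at least 10 CPM in at least 4 libraries, DESeq2 1.42.0, limma-voom 3.58.1, the compared groups alone, a replicate block and leaving out each library.

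The gene lists and the genes named were chosen with earlier results of these data known. Named genes are anchors of each list, up to 3 more members with the lowest adjusted p, and the genes of largest fold change in FaDu, between the sorted groups and between the lines, at a mean of at least 10 CPM. Exceptions of a count of 5 or fewer, and AREG, TGFB2, TP63 and KRT19, were named after their values were seen. Some genes are not reported here. Promoter letters come from RefSeq (GRCh38.p14).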

Additional observations from a re-analysis of the deposited data

Results flagged for a closer look

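Dixon's 95% value was applied to 466 pairs of a named gene and a FaDu group. In 32 of them 1 of the 4 libraries lay further from the nearest other library than it allows. Chance flags about 1 in 20 where values are normally distributed. A group with counts in 1 library only is always flagged, as for CP, IL1RL1, MIR210HG, MMP1, RAPGEF3, SERPINB2, TGFB2 and TRPV3. MEK inhibitor replicate 2 was the library in 14 of the 32. It was high for AQP3 (36.9 CPM), CCN1 (440.0 CPM), CDKN1A (73.3 CPM), EPHA2 (35.7 CPM), GDF15 (158 CPM), KIF23 (51.0 CPM), MCM4 (241 CPM), NPM1 (409.6 CPM) and OAS1 (20.8 CPM), and low for PSAP (643 CPM). It alone of its group held counts of IL1RL1 (0.461 CPM), RAPGEF3 (0.461 CPM), SERPINB2 (0.231 CPM) and TRPV3 (2.08 CPM).

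The other inhibitor libraries stood apart for fewer genes. MEK inhibitor replicate 1 was high for ERBB3 (87.4 CPM) and PTPN14 (133 CPM) and low for HLA-F (9.52 CPM) and KSR1 (21.5 CPM). MEK inhibitor replicate 3 was low for FOS (45.1 CPM) and held the only MMP1 read of its group (0.207 CPM).

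Among invasive libraries, replicate 1 was low for JUND (44.0 CPM) and alone held CP (0.239 CPM). Replicate 2 was high for FGFR3 (9.09 CPM) and MMP14 (7.74 CPM), low for ITGA6 (318 CPM) and alone in holding TGFB2 (0.337 CPM). Replicate 3 was high for AQP3 (21.7 CPM), IL1B (92.6 CPM), MX1 (2.44 CPM) and TIMP3 (3.97 CPM). Replicate 4 was high for KRT6A (26.8 CPM) and alone held MIR210HG (0.239 CPM).

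Among the named genes looked at for it, the effect of invasive against inhibitor libraries differed between the lines for 16 in the edgeR fit over 40 libraries. Other named genes were not looked at for this count, and PLEKHS1, whose difference was also called, is not in it. The log2 difference, the Kyse30 effect minus the FaDu effect, was -2.89 for DUSP6, -2.42 for PHLDA1, -3.95 for ETV4, 4.91 for NDRG1 and 6.57 for EGLN3. It was 10.88 for IGFL1, 9.45 for MIR210HG, 9.26 for C1R, 8.56 for ANGPTL4, 8.40 for RHCG and 8.32 for CFB, and -9.86 for PCDH9, -9.67 for COL12A1, -7.82 for RAPGEF3, -7.39 for SPOCK1 and -6.08 for PTGS2. The genes from IGFL1 to PTGS2 were named because their difference was called and was among the widest, so their place in the 16 was fixed in advance. Of all genes tested, 7.29% had a called difference. Where a group was at 0 or held a few counts, as for IGFL1, C1R, CFB, RHCG, PCDH9, COL12A1 and SPOCK1, the size depends on the prior count of the fit.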

How the results depend on the processing

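Between invasive and inhibitor libraries the genes higher numbered 1840 to 2463 and those lower 1850 to 3132 over RLE and upper-quartile factors, no filter, the stricter filter, DESeq2, limma-voom and the fit of the 2 groups alone. Leaving out 1 library gave 2130 to 2558 and 2302 to 2561. Non-invasive against inhibitor libraries gave 1467 to 1774 and 1426 to 1776 when 1 library was left out. Between invasive and non-invasive cells DESeq2 called 183 higher and 441 lower and the fit of those groups alone 178 higher, and leaving out 1 library gave 28 to 87 and 181 to 256. Leaving out 1 library gave 929 to 1586 and 1337 to 1750 in Kyse30 and 413 to 740 and 316 to 689 for the difference between lines. The cause of these changes was not tested. The median log2 fold change of Kyse30 moved by -0.101 with RLE factors and by -0.24 with limma-voom, and the genes lower there numbered 2084 and 2035. That of the difference between lines moved by -0.19 with limma-voom, which called 512 genes higher and 575 lower.

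The replicate numbers of invasive and inhibitor libraries did not pair them, with correlations of -0.127, -0.104, 0 and -0.009 for numbers 1 to 4. Between invasive and non-invasive libraries the correlations were 0.166, -0.06, -0.007 and -0.012. A replicate block gave 2355 higher and 2586 lower genes in FaDu, 1811 and 1702 for non-invasive cells, 73 and 278 between the sorted groups, 1021 and 1519 in Kyse30 and 434 and 357 for the difference between lines. EPHA2 and MAPK3 lost their calls with it.

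Of 258 results for named genes 27 crossed the threshold and 16 changed sign in 1 or more settings. None of the 16 was called. Leaving out 1 library gave -1.08 to 0.27 for ASNS, -0.085 to 0.049 for CDH3, -0.37 to 0.72 for DDIT3, -0.12 to 1.16 for FN1, -0.18 to 0.13 for HMGCS1, -0.37 to 0.18 for IL1B, -0.27 to 0.15 for MAP2K1, -0.97 to 0.11 for MYC, -0.90 to 0.62 for PLAU, -0.0083 to 0.23 for SQLE and -0.72 to -0.10 for THBS1. It gave -0.27 to 0.035 for DUSP6 between the sorted groups, -0.43 to 0.15 for HBEGF and -0.055 to 0.33 for ITGA6 between the lines, and 0.08 to 0.45 for ETV4 and -2.06 to 1.19 for IGFL1 in Kyse30. With limma-voom ASNS was at 0.026, DDIT3 at 0.23, MAP2K1 at 0.033, PLAU at -0.33, and in Kyse30 ETV4 at -0.17 and IGFL1 at 0.26. With upper-quartile factors SQLE was at -0.0021, and with the block IL1B was at 0.0039 and PLAU at -0.015. Without both doubted libraries DDIT3 was at 0.48 and THBS1 at 0.022, an alternative chosen after seeing the data. The median of the metalloproteinase list was 0.42, but -0.10 without a filter and -0.50 with the stricter one. With 2814487 to 4631178 counts a library, genes under about 1 CPM rest on a few reads.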
